A study of Oryza sativa with 18 samples.

Results

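The distal 2.5 Mb of the short arms of rice chromosomes 11 and 12 were taken as the 2 copies of a duplication, and the R-loop peaks on them were compared. No sequence was used, so whether the duplication reaches to 2.5 Mb was not checked. Members were chosen by position alone. Peaks of the 17 libraries other than RNaseH were merged wherever they shared at least 1 bp, and regions with a midpoint within the first 2.5 Mb of either chromosome were kept. This gave 477 regions on chromosome 11 and 468 on chromosome 12, together 945 of the 89277 merged regions of the genome (1.06%).

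An R-loop is a stretch of DNA in which an RNA strand is paired with its template and the other DNA strand is displaced. R-loops form mainly where RNA is being transcribed, and RNase H removes the RNA strand from such hybrids. The short-arm ends of rice chromosomes 11 and 12 are known as a segmental duplication whose copies have kept closely similar sequence and gene order. Short reads from stretches that are identical in both copies cannot be assigned to either of them, so a library that keeps only uniquely aligned reads loses signal there.

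The assay (ISRH-seq) labels the DNA strand that replaces the RNA of a hybrid, and the labelled strand is sequenced. All libraries were made from wild-type seedlings, grown in soil or, for the NaCl treatment, in hydroponics. Of the 17 libraries, 13 are titled by the amount of DNA used, namely pairs of 8 µg, 5 µg, 3 µg, 1 µg, 500 ng and 250 ng libraries and a lone 100 ng library. A further 2 are titled salt (150 mM NaCl) and 2 CK(salt), the control. The treatment label reads 3 days of salt even on the CK(salt) libraries, and the titles were followed. The RNaseH library had 123 peaks in all. Whole seedlings were used, so the cell type that carries an R-loop is unknown, and the labels do not state that replicate libraries came from separate plants. All p-values therefore reflect the spread among these libraries alone, which may be technical.

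Depth was uneven. The lists held 14845 peaks at 100 ng and 32861 to 70518 in the other 16 libraries. Background coverage was solved from the fold and p-value of each summit and is given in fragments per position. Its most frequent value among a library's peaks was 0.881 at 100 ng and 3.88 to 12.7 in the others. The peak names of 11 input libraries carry the word uniq, those of 8 µg replicate 1 the word single, those of 8 µg replicate 2 and CK(salt) replicate 1 the word merge, and those of the other 3 none of these. What these words stand for is unknown here.

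The 2 copies carried nearly the same number of R-loop peaks. On the chromosome 11 copy the density ran from 36.0 peaks per Mb at 100 ng through a median of 89.2 to 147.6 in 8 µg replicate 1. On the chromosome 12 copy it ran from 28.4 at 100 ng through a median of 87.2 to 143.6 in both 8 µg libraries. Chromosome 11 was the higher copy in 11 libraries and chromosome 12 in 6. The mean log2 ratio of chromosome 11 to chromosome 12 was 0.03 ± 0.10 (SD, n = 17), and no difference was detected by a two-sided sign-flip permutation test over libraries (p = 0.20, adjusted p = 0.40 over the 8 paired results). The ratio of single libraries ranged from -0.09 to 0.34 on the log2 scale, with the extreme at 100 ng, where 90 peaks stood against 71. This call depends on settings. With midpoints from 0 to 3 Mb the ratio was 0.06 (adjusted permutation p = 0.00126), and with all lists cut to 14845 peaks it was 0.10 (adjusted permutation p = 0.00275), chromosome 11 being higher in both.

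**Figure D1:**
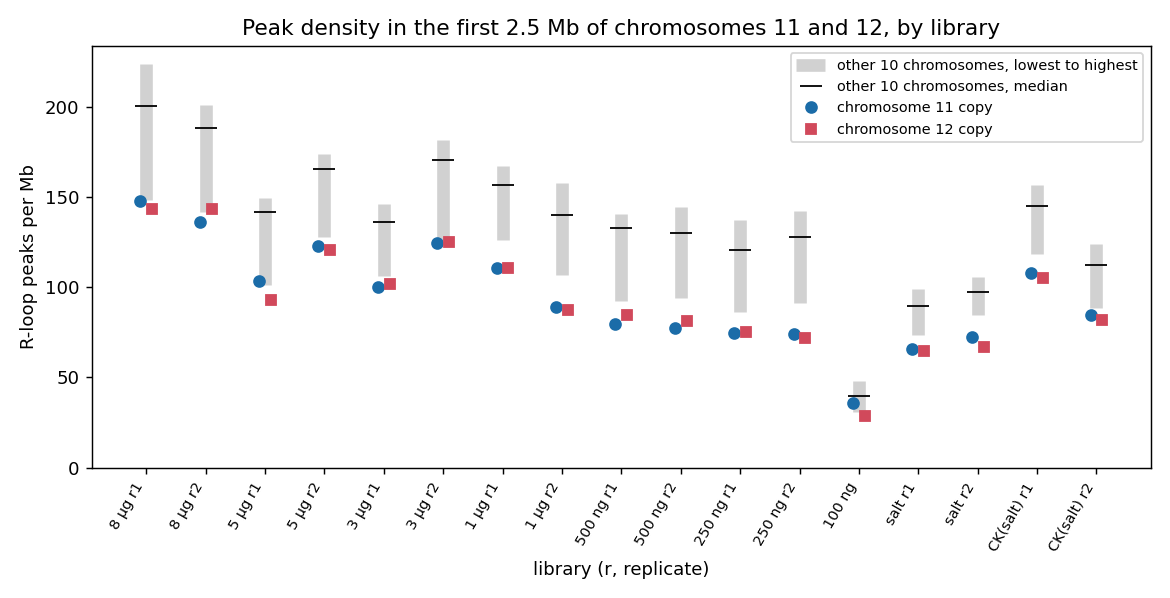
Peaks per Mb in the first 2.5 Mb of each chromosome for the 17 libraries; circles are the chromosome 11 copy, squares the chromosome 12 copy, grey bars the lowest to highest of the other 10 chromosomes and black dashes their median. Both copies lie below that median in every library, between 56.1% and 90.9% of it, and close to each other.

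Peaks covered 4.43 ± 1.51% of the chromosome 11 copy and 4.52 ± 1.60% of the chromosome 12 copy (SD, n = 17). The mean log2 ratio of the covered shares was -0.01 ± 0.11 (SD, n = 17; permutation p = 0.73, adjusted p = 0.83). Its direction depended on the setting. With midpoints from 0 to 2 Mb it was -0.07 (permutation p = 0.0222, adjusted p = 0.0591). With equally long lists it was 0.07 (permutation p = 0.0442, adjusted p = 0.0505). Peaks on chromosome 11 were slightly narrower, although the difference missed the threshold after adjustment. The median width was 275 bp at 100 ng, 391 bp in the middle library and 467 bp in 500 ng replicate 2 on chromosome 11. On chromosome 12 it was 266 bp at 100 ng, 418 bp in the middle library and 506 bp in 250 ng replicate 2. The mean difference was -14.6 ± 23.4 bp (SD, n = 17), with narrower peaks on chromosome 11 in 12 of 17 libraries (permutation p = 0.0237, adjusted p = 0.0631). It passed with midpoints from 0 to 3 Mb (-22.4 bp, adjusted permutation p = 0.00314), with equally long lists (-30.1 bp, adjusted permutation p = 0.00387) and without each of 5 single libraries in turn. It did not pass with means per group taken first (-13.2 bp, adjusted permutation p = 0.281), in the libraries with the word uniq (-18.5 bp, adjusted permutation p = 0.104), with a −log10 q of at least 5 (-16.5 bp, adjusted permutation p = 0.0912) or up to 2 Mb (-13.9 bp, adjusted permutation p = 0.0641).

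Neighbouring peaks were also spaced alike. The median distance between midpoints was 4.57 kb in 8 µg replicate 1, 6.97 kb in the middle library and 14.1 kb at 100 ng on chromosome 11, and 4.48 kb, 6.71 kb and 23.7 kb in the corresponding places on chromosome 12. The mean log2 ratio was -0.04 ± 0.23 (SD, n = 17; permutation p = 0.56, adjusted p = 0.74), and 0.0046 without the 100 ng library. With equally long lists it was -0.23 (adjusted permutation p = 0.00167) and with midpoints from 0 to 3 Mb -0.08 (adjusted permutation p = 0.00864). Peak strength, taken as the percentile of the −log10 q within a library's own list, had a median of 48.6 ± 3.05 on chromosome 11 and 48.3 ± 3.57 on chromosome 12 (SD, n = 17; mean difference 0.21, permutation p = 0.85, adjusted p = 0.85). It was higher on chromosome 11 in 8 libraries, higher on chromosome 12 in 8 and tied in 1. The peaks on the copies thus lay near the middle of their lists.

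The merged regions of both copies were narrower than those of the genome. Their median width was 482 bp on chromosome 11 and 469.5 bp on chromosome 12, beside 556 bp in the first 2.5 Mb of the other 10 chromosomes and 553 bp over all regions. Regions of at least 1200 bp made up 34 of the 477 regions on chromosome 11 (7.13%) and 43 of the 468 on chromosome 12 (9.19%), beside 10.7% of all regions. These widths are descriptions with no test. The widest region on chromosome 11 spanned 2131 bp from 134751 to 136881, and that on chromosome 12 spanned 3423 bp from 364324 to 367746. Both had a peak in all 17 libraries, with median percentiles of 74.8 and 70.3.

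Regions of the copies were found in as many libraries on chromosome 11 as on chromosome 12, within the spread. A region had a peak in 7.97 ± 5.64 libraries on chromosome 11 (SD, n = 477 regions) and in 8.04 ± 5.70 on chromosome 12 (SD, n = 468 regions), beside a mean of 8.62 over all regions. All 17 libraries had a peak in 50 regions of chromosome 11 (10.5%, exact 95% binomial interval 7.88 to 13.6%) and in 45 of chromosome 12 (9.62%, interval 7.10 to 12.7%). Over the genome the share was 10.6%, so the copies stood near the background. Without the 100 ng library, 67 (14.0%) and 71 (15.2%) regions had a peak in all of the other 16 libraries. The share was 17.1% over all regions and 16.7% at the other 10 ends. No interval was computed for these shares and the differences were not tested, so no call is made from them. Regions seen in 1 library only numbered 72 (15.1%) and 73 (15.6%), beside 14.2% of all regions, and 8 µg replicate 2 alone accounted for 17 and 23 of them. Intervals cover counting error only.

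**Figure D2:**
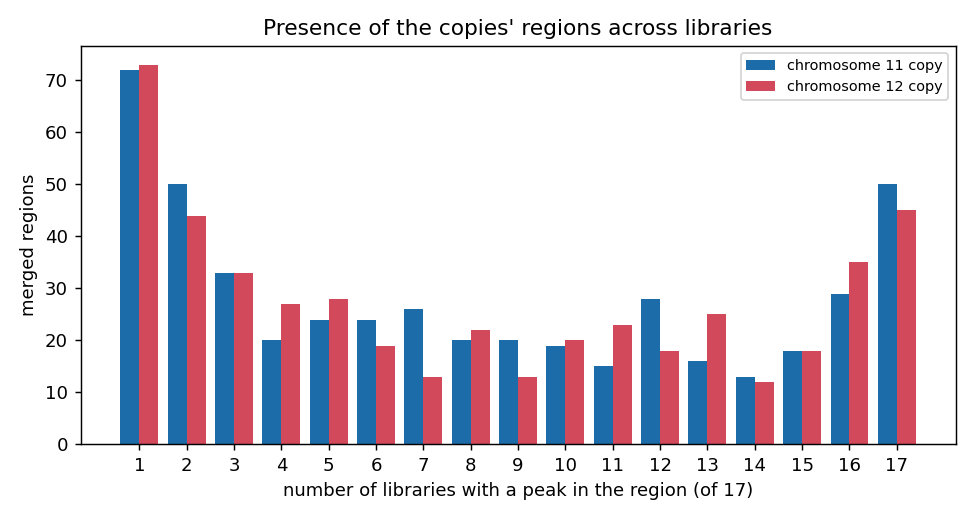
Number of merged regions by the number of libraries with a peak in them, for the chromosome 11 copy (477 regions) and the chromosome 12 copy (468 regions). Both copies have their highest bar at 1 library (72 and 73 regions) and many regions present in all 17 (50 and 45).

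Library by library, 18.03 to 71.7% of the chromosome 11 regions had a peak, and 15.0 to 72.9% of the chromosome 12 regions. The 100 ng library gave the lowest share on both copies. The mean difference was -0.41 ± 2.18 percentage points (SD, n = 17; permutation p = 0.44, adjusted p = 0.71). With equally long lists it was -2.83 percentage points (adjusted permutation p = 0.00387).

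Among regions present in all 17 libraries, the strongest on chromosome 11 lay from 2356198 to 2357083, with a median percentile of 99.6. The caller's fold over local background, which is the authors' deposited value for each peak in its own list, was 6.14 in 250 ng replicate 1, 13.3 in the middle library and 17.5 in 8 µg replicate 2. Next on chromosome 11 came 1014580 to 1015129 (median percentile 99.1), 248973 to 250264 (98.6), 2339442 to 2340589 (98.6) and 1461983 to 1462654 (97.1). The region from 248973 to 250264 was the steadiest of these 5, with no library below percentile 96.1. That from 2339442 to 2340589 ranged from percentile 12.1 to 99.8.

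The strongest region common to all libraries on chromosome 12 lay from 933373 to 934370, with a median percentile of 99.3 and folds from 5.92 in 250 ng replicate 1 through a median of 10.8 to 15.3 in 8 µg replicate 2. It was followed by 1016398 to 1017667 (median percentile 99.1), 125645 to 126676 (98.5), 1866557 to 1867821 (98.2) and 417865 to 418601 (97.5). All 5 chromosome 12 regions lay within the first 2 Mb, whereas 2 of the 5 on chromosome 11 lay beyond it. The lowest percentile of the 5 regions in any library was 89.9, 79.8, 43.5, 71.8 and 50.2 in the same order.

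Both copies held fewer peaks than the rest of their own chromosome. The remainder of chromosome 11 had a median density of 115.0 peaks per Mb and that of chromosome 12 a median of 111 peaks per Mb over the 17 libraries, beside 89.2 and 87.2 on the copies. The mean log2 ratio of copy to remainder was -0.27 ± 0.13 on chromosome 11 (SD, n = 17; lower in 16 of 17 libraries, all but 100 ng; permutation p = 3.1e-05, adjusted p = 0.000122). It was -0.29 ± 0.11 on chromosome 12 (SD, n = 17; lower in 17 of 17; permutation p = 1.5e-05, the smallest that 17 libraries allow, adjusted p = 0.000122). The copies thus had 82.8% and 81.7% of the density of the remainder of their chromosomes. The size depended on the segment and list length, while the call held. It was -0.48 and -0.44 up to 2 Mb, -0.14 and -0.19 up to 3 Mb, and -0.23 and -0.43 with lists of equal length (adjusted permutation p of 6.1e-05 to 0.000122). Means per group taken first, which do not count replicates as separate, gave -0.26 and -0.30 with a weaker adjusted permutation p of 0.03125 on both copies. A low short-arm end was not limited to them, since the mean log2 ratio on the other 10 chromosomes ran from -0.32 on chromosome 9 to 0.17 on chromosome 7. The end was lower in 17 of 17 libraries on chromosome 9 and also on chromosome 10, where the mean was only -0.11. On chromosome 8, with a mean of 0.08, it was lower in 0. Agreement among the libraries was thus not particular to the copies.

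Set against the first 2.5 Mb of the other 10 chromosomes, the copies were among the sparsest. Chromosome 11 lay below all 10 in 15 of 17 libraries and chromosome 12 in 16. Relative to the median of these 10 ends, chromosome 11 stood at 58.0% in 250 ng replicate 2, at 73.2% in the middle library and at 90.9% at 100 ng. Chromosome 12 stood at 56.1% in 250 ng replicate 2, at 71.7% in the middle library and at 76.3% in 8 µg replicate 2. In merged regions, chromosome 9, with 464, was as sparse as the copies, and chromosomes 1 to 8 and 10 had 509 to 679.

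The low density lay in the first 2 Mb of each copy, and in bins of 250 kb both copies rose at the same distance from their ends. The chromosome 11 copy held 35 to 49 regions in each of the 8 bins nearest the end and 77 and 70 in the last 2. The chromosome 12 copy held 33 to 46 and then 67 and 68. The median of the other 10 chromosomes was 53 to 68 regions in every bin. Per Mb, chromosome 11 thus had 165.0 regions up to 2 Mb and 294 beyond, a ratio of 0.561, and chromosome 12 had 166.5 and 270.0, a ratio of 0.617. On the other 10 chromosomes this ratio ran from 0.785 to 1.52. In bins of 50 kb the place of the rise was less clear. Chromosome 11 held 6 regions from 2000 to 2050 kb and 16 from 2050 to 2100 kb. Chromosome 12 held 12 from 1900 to 1950 kb, 12 from 1950 to 2000 kb and 16 from 2000 to 2050 kb. From 2100 to 2150 kb it held 5. The position of the step was chosen after the profile was seen, so it is described without a test.

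**Figure D3:**
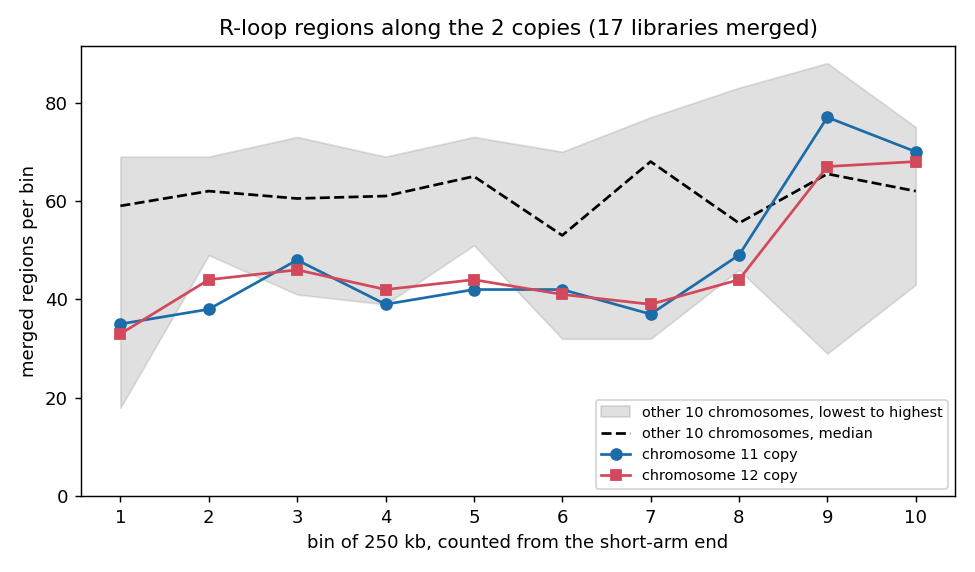
Merged regions per bin of 250 kb, counted from the short-arm end, for the chromosome 11 and 12 copies; the grey band spans the other 10 chromosomes and the dashed line is their median. Both copies stay at 33 to 49 regions up to bin 8 and reach 67 to 77 in bins 9 and 10.

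Over the 10 bins the profiles of the copies had a Pearson correlation of 0.964 and a Spearman correlation of 0.862, the highest Pearson value of the 66 pairs of chromosome ends, whose next value was 0.674. The points share all libraries and the distance from the chromosome end, and the value rests largely on the step. Within the first 2 Mb, 8 bins gave 0.727, which 1 other pair exceeded. Bins of 100 kb gave 0.409 there, which 6 other pairs exceeded, and bins of 50 kb gave 0.333, which 2 exceeded. In single libraries the correlation over 10 bins had a median of 0.798 and was the highest of the 66 pairs in 11 of 17 libraries. It was 0.262 at 100 ng and -0.02 in salt replicate 1, the lowest.

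The step was seen in nearly every library. On chromosome 11 the density up to 2 Mb was 32.5 peaks per Mb at 100 ng, 76.0 in the middle library and 132 in 8 µg replicate 1, and beyond 2 Mb it was 50, 146 and 210.0 in the corresponding places. It was higher beyond 2 Mb in 17 of 17 libraries. On chromosome 12 it was 29.0 at 100 ng, 76.5 in the middle library and 130 in 8 µg replicate 1 up to 2 Mb, and 26.0 at 100 ng, 132 in the middle library and 206 in 8 µg replicate 2 beyond. It was higher beyond 2 Mb in 16 of 17 libraries, the 100 ng library, with 13 peaks beyond 2 Mb, being the exception. In salt replicate 1 the chromosome 12 ratio of the first stretch to the second was 0.977, so its step there was slight.

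Beyond 2 Mb the density of the copies was close to that of other chromosome ends. In the last 0.5 Mb it was 90.6 to 128% (median 105%) of the median of the other 10 chromosomes on chromosome 11 and 66.7 to 107% (median 95.2%) on chromosome 12, the lowest of these at 100 ng. Up to 2 Mb it was 46.5 to 80.2% and 48.9 to 71.7%. The median percentile of the peaks was higher beyond 2 Mb in 7 of 17 libraries on chromosome 11 and in 4 of 17 on chromosome 12.

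**Figure D4:**
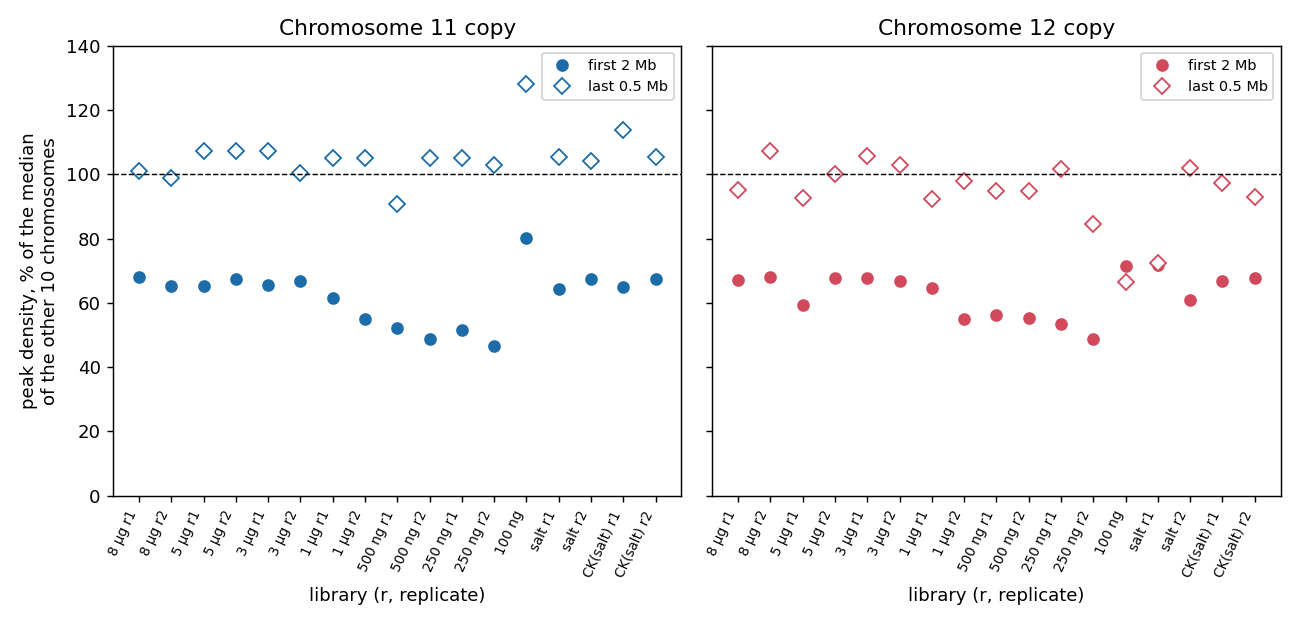
Peak density in each library as a percentage of the median of the other 10 chromosomes at the same distance from the end; filled circles are the first 2 Mb, open diamonds the last 0.5 Mb, and the dashed line marks equality. The circles lie at 46.5 to 80.2%, the lowest in 250 ng replicate 2 on both copies, and the diamonds at 66.7 to 128%.

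The shortfall up to 2 Mb was greater in the libraries of 500 and 250 ng than in those of 3 µg and more. On chromosome 11 the first 2 Mb had 66.8 ± 1.97% of the density of other ends at 8 µg, 66.4 ± 1.66% at 5 µg and 66.2 ± 0.856% at 3 µg. The 1 µg libraries had 58.4 ± 4.61%, the 500 ng libraries 50.5 ± 2.54% and the 250 ng libraries 49.1 ± 3.63% (SD, n = 2 each), and the 100 ng library had 80.2%. Chromosome 12 had 67.6 ± 0.638%, 63.6 ± 6.12%, 67.3 ± 0.715%, 59.8 ± 6.64%, 55.8 ± 0.501% and 51.1 ± 3.14% in the same order of amounts (SD, n = 2 each), with 71.6% in the 100 ng library. On both copies all 4 libraries of 500 and 250 ng lay below all 6 of 8, 5 and 3 µg. This comparison was chosen after the values were seen and was not tested. The median peak width over the whole list moved with it, being 470.0 to 514 bp in these 4 libraries and 379 to 436 bp in those 6. List length did too, at 43744 to 46310 peaks against 48308 to 70518. The salt libraries, with 32861 and 35907 peaks, had 66.0 ± 2.17% on chromosome 11 and 66.3 ± 7.63% on chromosome 12 (SD, n = 2 each). The CK(salt) libraries, with 51710 and 40592 peaks, had 66.2 ± 1.66% and 67.3 ± 0.755% (SD, n = 2 each). The parts of width and list length in the result were not tested. Within 3 libraries whose peak names carry consecutive codes, the chromosome 11 value was 65.3% in 5 µg replicate 1, 65.6% in 3 µg replicate 1 and 52.3% in 500 ng replicate 1. The chromosome 12 values of these libraries were 59.3%, 67.8% and 56.2%. The peak names of the 3 µg libraries carry the replicate numbers the other way round from their titles, and the titles were followed.

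Local background moved with the step. The caller compares each summit with the higher of the genome-wide and the local coverage. The genome-wide value was inferred here as the most frequent solved background among a library's peaks. A peak whose background lies within a small tolerance of that value was read as lying where the surrounding coverage is not above it. Up to 2 Mb this held for 35.4% of the chromosome 11 peaks at 100 ng, for 65.4% in the middle library and for 73.2% in 250 ng replicate 1. On chromosome 12 it held for 37.9%, 57.8% and 70.1% in the corresponding libraries. Beyond 2 Mb the middle library had 27.4% on chromosome 11 and 24.3% on chromosome 12, and the share was lower than up to 2 Mb in all 17 libraries on both copies. Over whole lists the middle value was 23.2%. In the first 2 Mb of the other 10 chromosomes the middle library had from 15.1% on chromosome 6 to 35.3% on chromosome 9. On each copy the stretch with fewer merged regions per Mb thus had the higher share. Other ends with similarly few regions had lower shares than the copies up to 2 Mb. The first 2 Mb of chromosome 9, with 183 regions per Mb, had 35.3%. Beyond 2 Mb chromosome 4, with 144 regions per Mb, had 45.7% in the middle library. The copies had 165 and 166.5 regions per Mb up to 2 Mb. The background was solved at the peaks themselves and no control is given, so it may hold reads of neighbouring peaks. It is therefore not a measure of coverage independent of peak density, and its part in the result was not tested.

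**Figure D5:**
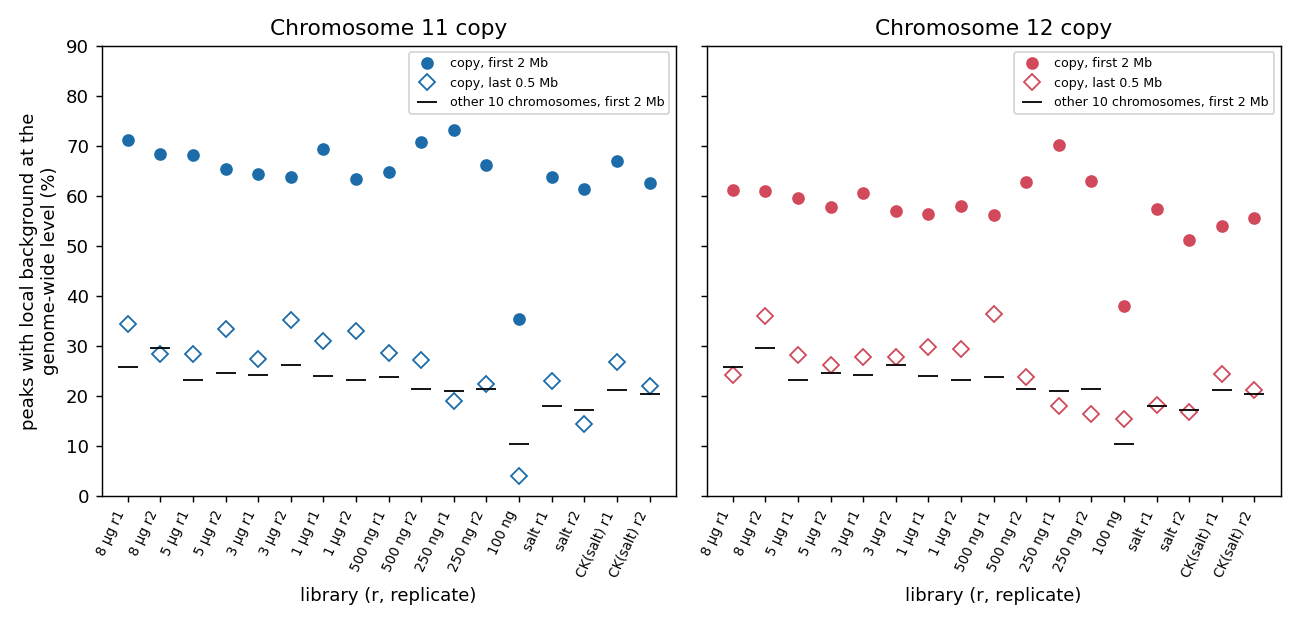
Share of peaks whose local background equals the genome-wide background, by library. The latter was inferred as the most frequent solved background among the library's peaks. Filled circles are the first 2 Mb of the copy, open diamonds its last 0.5 Mb and dashes the first 2 Mb of the other 10 chromosomes. The circles, with medians of 65.4% on chromosome 11 and 57.8% on chromosome 12, lie above the diamonds in every library.

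The treatment of reads that align equally well to both copies is unknown here. Density up to 2 Mb was 0.574 of that beyond on chromosome 11 and 0.619 on chromosome 12 in the middle one of the 11 libraries with the word uniq. In the other 6 libraries the medians were 0.636 and 0.673, so the step was present in both sets. The part of read assignment in the step was not tested, as no sequence of the files' build was used here.

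The outermost sequence of both copies held few peaks. On chromosome 11 the longest stretches without a region ran from 4761 to 57396 (52.6 kb) and from 57630 to 107750 (50.1 kb), separated by a single small region. On chromosome 12 the longest ran from 3195 to 103548 (100.4 kb). The regions nearest the end were at 1887 to 2291, 2506 to 2808 and 3734 to 4760 on chromosome 11, seen in 8, 4 and 10 libraries. Nearest the end of chromosome 12 lay 2060 to 3194, seen in 10 libraries, followed after the empty stretch by 103549 to 104310, seen in 6. These outermost regions were picked out after their values were seen. The second longest stretch without a region on chromosome 12 ran from 1675772 to 1710459 (34.7 kb). Stretches of at least 20 kb numbered 12 on chromosome 11 and 7 on chromosome 12, and took up 14.9% and 10.5% of the sequence. The other 10 ends had 1 to 14 of them, 14 on chromosome 9 and 12 on chromosome 4. Long stretches were also found there, the longest being 114.7 kb on chromosome 7, 75.6 kb on chromosome 9 and 62.0 kb on chromosome 4. In the outermost 250 kb, chromosome 9 had 18 regions, fewer than the 35 and 33 of the copies, and the other 9 chromosomes had 46 to 69.

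At fine scale no shared order of R-loop positions was detected on the copies at the main setting, but the comparison changed with the setting. Each window of 100 kb of chromosome 11, taken every 50 kb, was placed at every 200 bp along the chromosome 12 copy, and the placement with the highest correlation of library counts was kept. A window was called aligned if its best offset lay within 20 kb of that of a neighbouring window. Of 49 windows 7 were aligned, and the median of the best correlations was 0.409. Against the first 2.5 Mb of the other 10 chromosomes, 0 to 10 windows were aligned, with medians of 0.360 to 0.416, and against chromosome 12 read backwards 15 were. The count for chromosome 12 thus lay within the range of the other ends. With 0 to 3 Mb, 11 of 59 windows were aligned on chromosome 12, beside 2 to 10 on the other chromosomes and 17 on chromosome 12 read backwards. Windows of 200 kb every 100 kb gave 8 of 24, beside 0 to 8 on the other chromosomes and 2 backwards. Bins of 500 bp gave 9 of 49, beside 2 to 12 and 8 backwards. The libraries with the word uniq gave 7, beside 2 to 11 and 12 backwards. A −log10 q of at least 5 gave 5, beside 4 to 10 and 13 backwards.

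The windows aligned to chromosome 12 began at 0, 50 and 100 kb, with offsets of 1184, 1168 and 1168 kb, and at 450, 500, 550 and 600 kb, with offsets of -411, -404, -532 and -545 kb. In the aligned windows, 25 regions of chromosome 11 lay opposite 21 of chromosome 12, as 28 pairs. Placements were chosen for the highest correlation of library counts, so that choice itself sets widely shared regions opposite each other. As the count of aligned windows lay within the range of the other ends, the pairs cannot be read as matching positions of the copies. The highest-ranked pair was 671382 to 672177 on chromosome 11 and 125645 to 126676 on chromosome 12, both present in all 17 libraries. The same chromosome 12 region also formed the second pair, with 537169 to 538191 on chromosome 11. The other 3 of the 5 highest-ranked pairs joined 544377 to 545811 and 537169 to 538191 on chromosome 11 with 140208 to 141682 and 133159 to 133938 on chromosome 12, so regions recurred among them.

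Both copies had fewer peaks in the salt than in the CK(salt) libraries. Under salt the chromosome 11 copy had 65.6 and 72.4 peaks per Mb, against 108.0 and 84.4 in CK(salt), and the chromosome 12 copy had 64.8 and 66.8 against 105.2 and 82.0. The groups did not overlap on either copy, nor at any of the other 10 chromosome ends, so this was not particular to the copies. The difference in mean log2 density was -0.47 on chromosome 11 and -0.50 on chromosome 12, each with a two-sided exact permutation p of 0.33, the smallest that 2 against 2 libraries allow. By replicate number, which also follows consecutive library codes, the differences were -0.72 and -0.22 on chromosome 11 and -0.70 and -0.30 on chromosome 12. The median density of the other 10 chromosome ends was also lower in salt, at 89.6 and 97.6 peaks per Mb, than in CK(salt), at 145.2 and 112.2. Relative to that median the chromosome 11 copy stood at 73.2% and 74.2% in salt and at 74.4% and 75.2% in CK(salt), and the chromosome 12 copy at 72.3% and 68.4% in salt and at 72.5% and 73.1% in CK(salt). With lists of equal length the differences were -0.03 and -0.06.

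No difference between the copies was detected in this respect. The log2 ratio of chromosome 11 to chromosome 12 averaged 0.07 in salt and 0.04 in CK(salt), a difference of 0.03 (two-sided exact permutation p = 1, where 0.33 is the smallest that 2 against 2 libraries allow). The median peak width was 332 ± 25.8 bp in salt and 393 ± 28.6 bp in CK(salt) on chromosome 11, and 325 ± 38.2 bp and 400.5 ± 6.36 bp on chromosome 12 (SD, n = 2 each). Over whole lists it was 352 and 315 bp in salt replicates 1 and 2, against 427 and 401 bp in CK(salt) replicates 1 and 2. Narrower peaks in salt were thus not particular to the copies. The covered share was 2.70 ± 0.0403% and 4.53 ± 1.07% on chromosome 11, and 2.52 ± 0.143% and 4.44 ± 0.853% on chromosome 12 (SD, n = 2 each). The covered share of the other chromosome ends is not given here.

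Regions lost under salt, with a peak in both CK(salt) and in neither salt library, numbered 25 of 477 on chromosome 11 (5.24%) and 28 of 468 on chromosome 12 (5.98%). Over the genome 4.83% of regions were lost, so the copies were near the background. Among regions present in both CK(salt) libraries, 13.7% (exact 95% binomial interval 9.04 to 19.5%) of 183 were lost on chromosome 11 and 16.0% (interval 10.9 to 22.3%) of 175 on chromosome 12, beside 12.1% over the genome. Gained regions, the reverse, numbered 0 on both copies, which allows a share of up to 0.317% of the 945, and over the genome the share was 0.167%. With fewer libraries to agree the counts were larger. Without salt replicate 1, 46 (9.75%) and 50 (10.7%) regions were lost, beside 9.07% over the genome. Without salt replicate 2 these were 50 (10.5%) and 52 (11.2%) beside 10.3%, and without CK(salt) replicate 2 they were 75 (15.7%) and 72 (15.4%) beside 14.5%. Gained regions numbered 17 (3.60%) and 11 (2.36%) without salt replicate 1, beside 2.39% over the genome. They numbered 9 (1.89%) and 9 (1.93%) without salt replicate 2 beside 1.59%, 3 (0.637%) and 4 (0.857%) without CK(salt) replicate 1 beside 1.31%, and 0 and 1 (0.214%) without CK(salt) replicate 2 beside 0.301%.

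The highest-ranked lost region on chromosome 11 spanned 891957 to 892506, where CK(salt) replicates 1 and 2 had folds of 8.12 and 9.06, with a peak in 9 of 13 input libraries. It was followed by 2276135 to 2277085 (folds of 6.27 and 6.15, 12 input libraries) and 691531 to 691959 (6.66 and 5.29, 4 input libraries). On chromosome 12 the first was 814906 to 815460, with folds of 7.29 and 6.61 and a peak in 10 input libraries. Then came 323478 to 324030 (8.33 and 6.23, 9 input libraries) and 2363029 to 2363461 (5.89 and 5.68, 9 input libraries).

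None of the 123 peaks of the RNaseH library lay in either copy (0 of 123, which allows a share of up to 2.44%), beside 3 in the first 2.5 Mb of the other 10 chromosomes. The RNaseH peak nearest to the copies was on chromosome 12 from 3201132 to 3201373, and the first on chromosome 11 lay from 6114033 to 6114382. Chromosome 12 had 47 of the 123 RNaseH peaks in all and chromosome 11 had 4.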

How the data were processed

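The submitters' processing notes name Bowtie2 for alignment and MACS2 2.1.4 for peaks; the build, any control and the handling of multiply aligned reads are not given in the sources used here. The authors deposited 1 peak list per library with, per summit, a score, a fold (linear ratio over local background) and a p-value and q-value on the −log10 scale. Multiplying the −log10 q by 10 and dropping decimals gives the deposited score. The lowest −log10 q lay just above 2 in these 17 libraries.

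Summit pileup and background were solved from the fold and p-value with a tolerance of 0.0002, for at least 99.997% of summits. Each library gave 1 value per copy, and the 17 differences were tested with a two-sided exact sign-flip permutation test, adjusted by Benjamini-Hochberg over 8 results. Salt was tested by exact permutation of 4 libraries. The functions were tested on simulated data (Python 3.11.15, numpy 2.4.6, pandas 2.3.3, scipy 1.17.1). Regions were named by rule, namely per copy the 5 strongest present in all 17 libraries, the widest, the 2 longest empty stretches, up to 3 lost and 3 gained under salt and the 5 strongest opposite pairs. Members, tests and the lists of alternatives were chosen with earlier results of these data known. Alternatives were a −log10 q of at least 5, other segment ends, equal list lengths, 50% cover and left-out libraries. The gene table at hand is of another build, so genes and sequences were not used here.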

Additional observations from a re-analysis of the deposited data

How the results depend on the processing

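Over 23 results, 352 of the 410 values kept their direction and their side of the threshold or, for counts, stayed within 1.5 times; where a value did not, the cause was not tested. Chromosome 11 against 12, with midpoints from 0 to 2 Mb, gave -0.018 for density and -1.83 for the percentile. From 0 to 3 Mb, density was 0.063, covered share 0.00026, width -22.4 bp, spacing -0.080, percentile -1.49, the share of regions with a peak 0.129 points and the salt ratio of the copies -0.018. Lists of equal length gave 0.099, 0.071, -30.1 bp, -0.23, -0.178 and -2.83 points for the first 6 of these measures. The libraries with the word uniq gave a percentile difference of -0.247, and means per group gave -0.355 with a covered share of 0.0060. A −log10 q of at least 5 gave a salt ratio of -0.047. With 50% cover, the share difference was 0.401 points, 8 (1.68%) and 6 (1.28%) regions were in every library beside 1.40% of all regions, 39 (8.18%) and 43 (9.19%) were lost beside 7.39%, and 1 (0.210%) and 1 (0.214%) gained beside 0.125%. From 0 to 3 Mb, 11 windows were aligned. The correlation of the profiles was 0.727 for 0 to 2 Mb, 0.612 and 0.409 in bins of 100 kb (to 2.5 and 2 Mb) and 0.507 and 0.333 in bins of 50 kb; these bins were chosen after seeing the data.

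Leaving out each library in turn gave density ratios of 0.01 to 0.04, covered shares of -0.03 to -0.00084, widths of -17.0 to -12.6 bp, spacing of -0.057 to 0.0046, percentiles of -0.297 to 0.855 and shares of regions of -0.821 to 0.118 points. The width passed the threshold without 500 ng replicate 1 or 2, 100 ng, salt replicate 2 or CK(salt) replicate 1. The copy against its remainder ranged from -0.29 to -0.26 and from -0.30 to -0.28, and over the other settings from -0.48 to -0.14 and from -0.44 to -0.19. Salt differences were -0.65 to -0.29, -0.68 to -0.32 and, for the ratio of the copies, -0.022 to 0.076. Regions in every library numbered 50 to 67 and 44 to 71, lost regions 25 to 75 and 28 to 72, and gained regions 0 to 17 and 0 to 11.

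Same-numbered salt and CK(salt) libraries deviated together with a correlation of 0.0387 over 1486 bins, so the numbers were not taken to pair them. With the replicate block the salt differences were -0.47, -0.50 and 0.03, with exact permutation p of 0.5, 0.5 and 1. Leaving out the 100 ng library moved the counts of regions present in every library from 50 and 45 to 67 and 71, and those of regions present in 1 library from 72 and 73 to 72 and 72.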
